A study of Caenorhabditis elegans with 2 samples.

Results

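Binding of LIR-3, a protein of the LIN-26 family of zinc-finger factors in Caenorhabditis elegans, was examined at 9 genes for the packaging and nuclear export of mRNA. These were the THO complex genes thoc-1, thoc-2, thoc-3, thoc-5 and thoc-7, the export adaptor genes aly-1 and aly-2, the helicase gene hel-1 and the export receptor gene nxf-1. They were chosen by name from 19973 nuclear protein-coding genes, with earlier results of these data known, and every LIR-3 summit within 500 bp of their annotated 5' ends was collected. Since the positions of summits were thus part of the choice, the peaks at these genes are a description and carry no test. The data were chromatin immunoprecipitation and sequencing (ChIP-seq) peak lists from 2 biological replicates of whole hermaphrodite L1 larvae, hatched without food after bleaching and collected 6 h after synchronization. All animals were of strain OP312, which carries the unc-119(ed3) mutation and the transgene wgIs312, a stable insertion in which LIR-3 bears a GFP-FLAG tag at its carboxy end. Sonicated chromatin was recovered through the GFP part of the tag with an anti-GFP antibody. The promoter of the transgene is not given in the sources used here, whole larvae give no resolution by cell type, and a listed control experiment was not analysed here.

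As background, THO is a complex that is loaded onto nascent transcripts and joins a helicase of the UAP56 type and an adaptor of the ALY type to form TREX, which couples transcription to export. The helicase and the adaptor prepare the messenger ribonucleoprotein for the NXF1-type receptor, which carries it through the nuclear pore. In the worm, hel-1 encodes the UAP56 homolog, aly-1 and aly-2 encode ALY homologs, and nxf-1 encodes the receptor.

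The DNA under the 4 strongest pooled summits within 500 bp of these genes' 5' ends is shown first, because the results turn on how far each summit lies from its gene. Each run is read 5' to 3' on the strand of the gene and reaches at most 100 bp to either side of the pooled summit, which is base 101 of each run. All coordinates are ce11. The thoc-5 run (chrIII:5349402-5349549, minus strand) stops at the base before the annotated 5' end, so that no annotated exon of thoc-5 is included. The hel-1 run (chrII:8329030-8329230, minus strand) lies in an intron of C26D10.3, a protein-coding gene on the other strand. The nxf-1 run (chrV:14415244-14415444, minus strand) and the aly-2 run (chrIV:9147100-9147300, plus strand) lie between genes. Capitals mark matches to 9 motifs described with the composition of these windows.
thoc-5: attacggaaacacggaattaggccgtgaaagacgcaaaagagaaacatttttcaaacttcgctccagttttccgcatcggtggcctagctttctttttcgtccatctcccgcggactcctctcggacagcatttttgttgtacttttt
hel-1: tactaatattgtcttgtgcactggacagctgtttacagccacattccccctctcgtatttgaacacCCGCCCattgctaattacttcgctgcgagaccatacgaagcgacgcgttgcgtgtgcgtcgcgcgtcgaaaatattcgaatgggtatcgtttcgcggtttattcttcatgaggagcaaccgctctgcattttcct
nxf-1: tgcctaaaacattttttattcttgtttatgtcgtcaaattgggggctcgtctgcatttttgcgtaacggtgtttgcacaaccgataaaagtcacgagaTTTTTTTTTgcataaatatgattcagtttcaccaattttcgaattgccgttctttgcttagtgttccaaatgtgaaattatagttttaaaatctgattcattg
aly-2: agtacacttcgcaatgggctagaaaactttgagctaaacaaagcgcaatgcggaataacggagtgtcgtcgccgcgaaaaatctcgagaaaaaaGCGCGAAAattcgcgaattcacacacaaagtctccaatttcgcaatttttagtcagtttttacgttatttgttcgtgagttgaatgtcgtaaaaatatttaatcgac

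Of the 9 genes, thoc-5, hel-1 and nxf-1 had a LIR-3 peak that passed the authors' reproducibility threshold. The authors' optimal set on the irreproducible discovery rate (IDR) holds 1894 nuclear peaks. For 3 of 9 members (33.3%) a summit of that set was at most 500 bp from the annotated start, against 6.09% of all protein-coding genes (1216 of 19973). Because the choice of genes was made with these peaks known, nothing is read from that difference. Peak scores are the authors' signal values, with no unit given, and rank regions within a list. Across lists they are set side by side as a description only, since no source used here says that their scales match. Every pooled nuclear region with a score above the lowest one in the IDR set, 89.9, was in that set. Membership among nuclear regions thus followed the order of the pooled score, and a gene's place above or below 89.9 decided its count. The lowest member inside was nxf-1 with a pooled score of 101. The highest outside was aly-2 with 70.1, at rank 2798 in the pooled list.

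**Figure D1:**
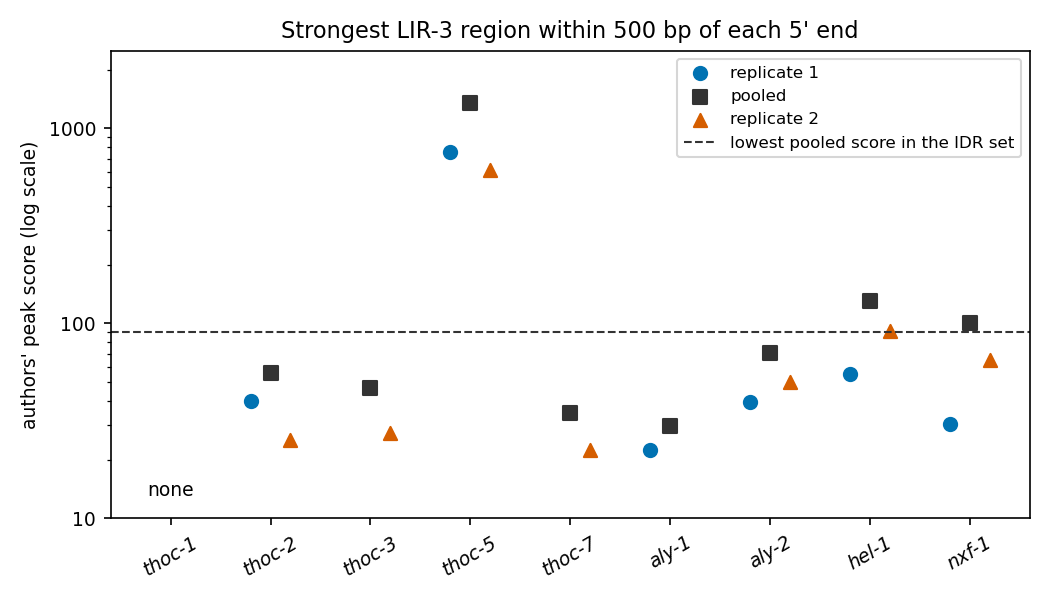
Authors' peak score (log scale) of the strongest region within 500 bp of each gene's 5' end in the replicate 1 list (circles), the pooled list (squares) and the replicate 2 list (triangles); the dashed line is the lowest pooled score in the IDR set, 89.9. Only thoc-5, hel-1 and nxf-1 have pooled scores above the line, and thoc-1 has no region in any list.

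The count of members with an IDR peak rested on hel-1 and nxf-1, since thoc-5 kept its peak under each of the 8 alternatives tried. With a window of 250 bp, or with the strongest 947 of the IDR peaks, only thoc-5 remained, and the corresponding shares of protein-coding genes were 3.89% and 3.71%. When a summit could count for a single gene, the one starting closest to it, nxf-1 was lost. It was also lost without replicate 2, among the 1894 strongest nuclear peaks of replicate 1.

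Among the THO subunit genes, thoc-5 stood out with one of the strongest LIR-3 peaks in the genome. This gene (WBGene00021311, chromosome III, 5345931 to 5349401, minus strand) encodes a THO subunit. Its peak scored 756 in replicate 1, 614 in replicate 2 and 1354 in the pooled list. The peak ranked 15, 30 and 18 among the nuclear regions of these lists. It was thus among the strongest 30 regions of either replicate. Its pooled score was 8.5 times the median of the IDR set, 159. By pooled score thoc-5 was number 20 of the 1216 protein-coding genes with an IDR summit. Its peak spanned 5349317 to 5349586, or 270 bp, where the median IDR peak was 336 bp wide. Every pooled region within 2000 bp of another member also had exactly that width of 336 bp. The median is thus a recurring width, and nothing is read from the difference.

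The thoc-5 summit lay close to the annotated start of the gene and had no other gene near it. Its pooled summit was at 5349449, 48 bp upstream of the 5' end, and those of replicates 1 and 2 were 47 bp and 40 bp upstream. From a second annotated transcript start 34 bp further into the gene, the pooled summit was 82 bp upstream. Of the 1216 protein-coding genes with an IDR summit, 9.21% had their strongest one within 50 bp of the 5' end, and the median offset was -187.5 bp, where negative is upstream. No other gene, piRNA genes aside, had its 5' end within 500 bp of the thoc-5 summit. The nearest gene upstream was an unnamed pseudogene 3439 bp away, and the nearest 5' end on the other side was that of glrx-21, which encodes a glutaredoxin, at 3284 bp.

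**Figure D2:**
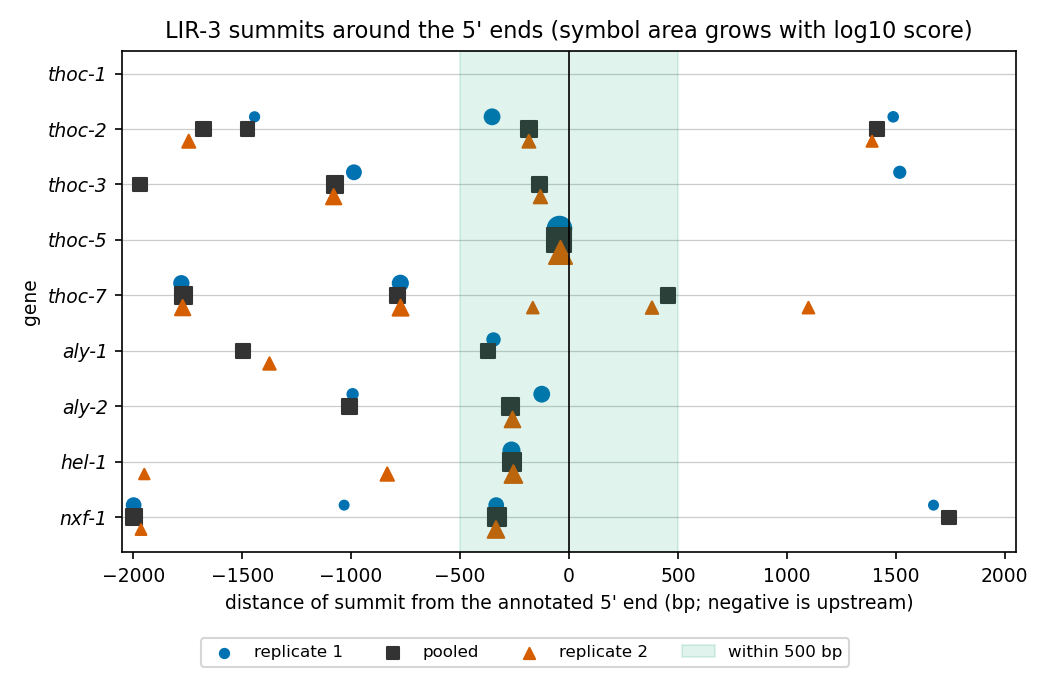
Distance of each LIR-3 summit from the annotated 5' end in bp (negative is upstream) for the 9 genes, with circles for replicate 1, squares for the pooled list and triangles for replicate 2, and symbol area growing with log10 score; the shaded band is the 500 bp window. Inside that window, the replicate summits at thoc-5, hel-1 and nxf-1 lie within 9 bp of each other. At thoc-1 there is no summit within 2000 bp.

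For thoc-2, the gene of the largest THO subunit in other animals, regions were listed in both replicates but below the threshold. It lies on chromosome III at 6368042 to 6373904, plus strand (WBGene00015813). The strongest region within 500 bp scored 39.9 in replicate 1, 25.1 in replicate 2 and 55.5 in the pooled list, where it ranked 4587. The replicate summits were 353 bp and 184 bp upstream, 169 bp apart. At thoc-5, hel-1 and nxf-1 the replicate summits were at most 9 bp apart. The divergent gene C56G2.15 starts 143 bp away, and the pooled summit lay in its 5' UTR, 39 bp downstream of its 5' end and 182 bp upstream of that of thoc-2.

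The remaining THO genes had weak or no regions. At thoc-3 (WBGene00009341, chromosome I, 8971139 to 8973037, plus strand), a region in the 3' UTR of the preceding gene F32H2.10 scored 46.7 in the pooled list and 27.4 in replicate 2, with summits 136 bp and 131 bp upstream. Replicate 1 listed none in the window. A stronger region at thoc-3 lay outside it, 1074 bp upstream in the pooled list with a score of 71.5. The pooled and replicate 2 summits fell in a coding exon of spd-2, a centrosome gene. The replicate 1 summit, 987 bp upstream, lay between genes. All of these summits were also upstream of F32H2.10, which starts 848 bp upstream of thoc-3 on the same strand. The region scored 31.3 in replicate 1 and 44.9 in replicate 2, and was named after its values were seen. For thoc-1 (WBGene00020172, chromosome II, 702107 to 708608, plus strand), which encodes the subunit also known as HPR1, no list held a summit within 2000 bp. Its nearest pooled summit was 14273 bp away and its nearest IDR summit 75958 bp away. The gene starts 4.6% along its chromosome, while the other members start between 38.8% and 79.4%.

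At thoc-7, which encodes a small THO subunit, the replicates and the pooled list differed. The gene (WBGene00007195, chromosome IV, 13882734 to 13884177, plus strand) had a pooled region of score 34.9 in its own intron, 456 bp downstream of the 5' end, the farthest pooled summit counted at any member. Replicate 2 had regions of 22.5 and 18.9 in the window, and replicate 1 had none. Outside the window, a region upstream of rpl-29, the ribosomal protein gene that directly precedes thoc-7 on the same strand, was stronger in both replicates. It scored 43.4 in replicate 1 (rank 2116) and 54.2 in replicate 2 (rank 1845), with summits 774 bp and 773 bp upstream of thoc-7. These summits were 265 bp and 264 bp upstream of rpl-29. In the pooled list, however, the matching region scored 38.8 and ranked 12503, so that the number given as its pooled score was below that of either replicate. A second region outside the window, 1770 bp upstream in the pooled list and in an intron of B0513.4, had a pooled score of 82.6, with 35.2 in replicate 1 and 45.5 in replicate 2. It too was named after its values were seen.

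Such a low pooled score was rare. Over the 7427 pooled nuclear regions with a summit of each replicate within 100 bp, the pooled score was a median 1.03 times the sum of the replicate scores, with 5th and 95th percentiles of 0.788 and 1.42. The ratio was 0.988 at thoc-5, 0.892 at hel-1 and 1.05 at nxf-1. At the region upstream of rpl-29 and thoc-7 it was 0.398, a value that 2 of the 7427 regions reached or fell below, this one included. Neither rpl-29 nor thoc-7 had an IDR summit. This region was singled out after its values were seen, and the cause of its low pooled score was not tested.

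**Figure D3:**
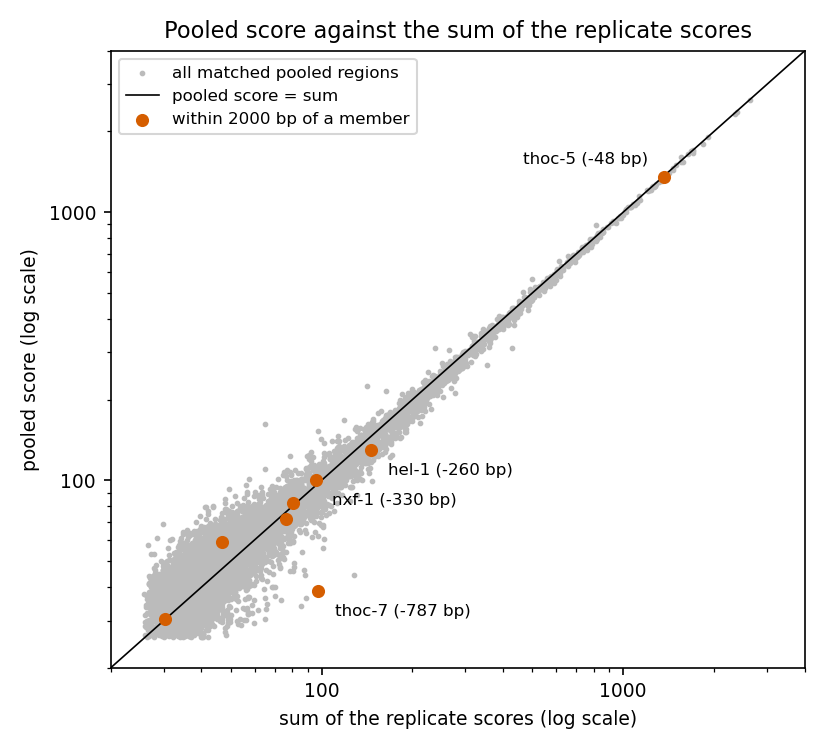
Pooled score against the sum of the scores of both replicates (both log scales) for the 7427 pooled nuclear regions matched within 100 bp in each replicate (grey), with regions within 2000 bp of a member in orange and the line of equality. The region 787 bp upstream of thoc-7 lies far below the line at 38.8 against 97.6, whereas thoc-5, hel-1 and nxf-1 lie close to it.

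The helicase and the export receptor genes carried IDR peaks of lower rank than thoc-5. At hel-1 (WBGene00001840, chromosome II, 8326852 to 8328870, minus strand) the peak scored 54.9 in replicate 1, 91.2 in replicate 2 and 130.3 in the pooled list. Its nuclear ranks in the 3 lists were 1559, 964 and 1194. Both replicate ranks fell among the strongest 1894. The pooled summit at 8329130 was 260 bp upstream of hel-1, and the replicates placed it 264 bp and 255 bp upstream. The 5' end of hel-1 is itself inside C26D10.3 on the opposite strand, and the summit fell in an intron of that gene. C26D10.3 has a separate IDR summit at its own start, 45 bp upstream and with a score of 105. The next gene, C26D10.4, starts 892 bp from hel-1 and had no IDR summit within 500 bp.

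At nxf-1 the peak was close to the threshold and uneven between replicates. The gene lies on chromosome V at 14411649 to 14415014, minus strand (WBGene00003834). Its peak scored 30.4 in replicate 1 and 65.2 in replicate 2. It ranked 3924 in replicate 1, outside the strongest 1894, and 1439 in replicate 2, inside them. The authors' −log10 q-value was 1.14 in replicate 1, 2.05 in replicate 2 (the ceiling of that list, which 1814 nuclear regions share) and 1.95 in the pooled list. The position agreed more closely than the strength, with summits 334 bp and 335 bp upstream and the pooled one at 14415344, 330 bp upstream. The summit lies between nxf-1 and the divergent gene C15H11.11, whose 5' end is nearer, at 155 bp, so the peak cannot be assigned to nxf-1 alone.

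Of the adaptor genes, aly-2 had a region below the threshold and aly-1 a weaker one. The aly-2 region (gene WBGene00000121, chromosome IV, 9147468 to 9148579, plus strand) scored 39.5 in replicate 1, 49.9 in replicate 2 and 70.1 in the pooled list. The replicate ranks were 2453 and 2052, both beyond the strongest 1894, and the summits were 125 bp and 263 bp upstream, 138 bp apart. The pooled summit was 268 bp upstream of aly-2 and 331 bp upstream of the divergent gene rpb-12, which encodes an RNA polymerase subunit. At aly-1 (WBGene00000120, chromosome IV, 9108931 to 9109753, plus strand) the region scored 22.5 in replicate 1 and 29.7 in the pooled list, where it ranked 23672 of 29984, and replicate 2 listed none within 500 bp. The preceding gene fem-3, a sex determination gene, ends 1323 bp before aly-1.

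**Figure D4:**
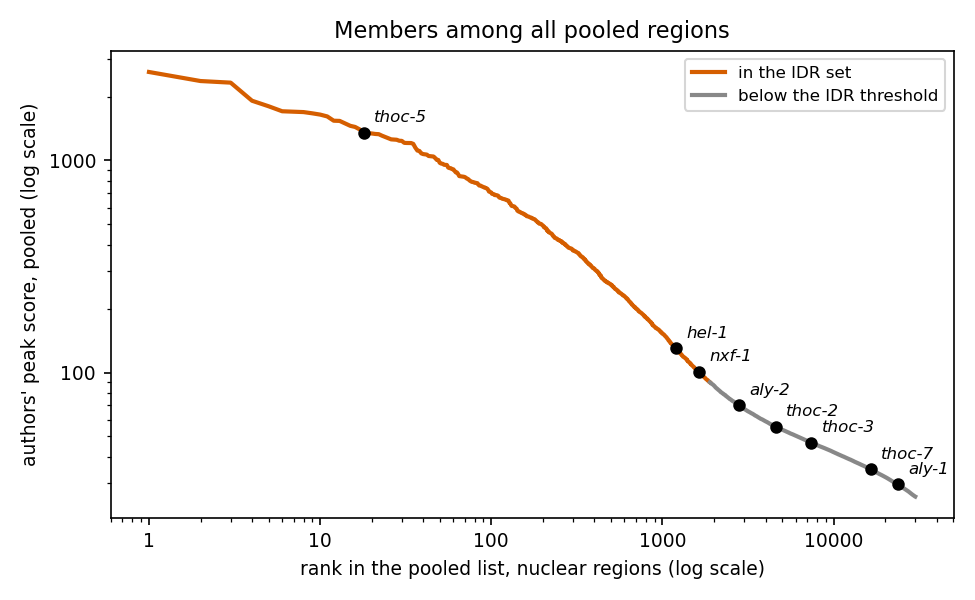
Pooled score against rank for all 29984 nuclear regions of the pooled list (both log scales), orange for regions in the IDR set and grey for those below it, with the strongest region within 500 bp of each member as a black point. The point for thoc-5 is at rank 18, those for hel-1 and nxf-1 are at 1194 and 1626, and the other 5 lie in the grey part from 2798 to 23672.

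Regions from before the threshold were listed near most members, as they were near many genes. Each such list holds 30000 regions with background included, so a listed region is not by itself detection of a peak. The pooled list had a summit within 500 bp of 8 of 9 members, against 35.3% of protein-coding genes. Replicate 1 had one at 6 of 9, against 35.4%, and replicate 2 at 7 of 9, against 35.4%. Both replicates had one at 5 of 9 members, namely thoc-2, thoc-5, aly-2, hel-1 and nxf-1, against 20.7% of protein-coding genes. The pooled summit was upstream at 7 of the 8 members with one, the exception being thoc-7. Among protein-coding genes with an IDR summit, 92.8% had their strongest one upstream. That share is over IDR summits, whereas the member count includes pooled summits below the threshold, so the figures are not like for like.

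The summit windows shared no motif of the 9 searched. Windows of 100 bp on each side of the 3 IDR summits were searched on both strands, beside 1891 windows at the other nuclear IDR summits and 19973 windows from 250 to 50 bp upstream of protein-coding 5' ends, all of the same length. The motifs were TATAAA (the TATA element), CTGCGTCTC, GGGCGG (the GC box), CACGTG (the E-box), TATCGATA, GCGCGAAA (an E2F-type site), TTTTTTT, TGGNNNAGT (a core of the RNA polymerase III A box) and GTTCGANNC (a core of its B box). CACGTG and TATCGATA read the same on both strands, and none of the motifs contains another. The thoc-5 window held none of them. In the hel-1 window there was 1 match to GGGCGG, on the reverse strand as printed, a motif in 8.94% of the other IDR windows and 5.59% of upstream windows. The nxf-1 window held 1 run of T with overlapping matches to TTTTTTT, which occurs in 24.1% of the other IDR windows and 42.1% of upstream windows. GCGCGAAA was in none of the 3 member windows, in 2.64% of the 1891 other IDR windows and in 0.916% of upstream windows. The printed aly-2 window, which is at a summit below the IDR threshold and outside this search, held it. Matches at the other members below the threshold are not given here. CTGCGTCTC was in 11.2% of the other IDR windows and 2.31% of upstream windows, and in none of the 3 member windows. A match is a description of these letters only.

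The sequence at these summits was unique in the genome. For each of the 8 members with a pooled region, 100% of the 31-base words in the summit window occurred once in the nuclear chromosomes, as they did in 86.7% of all IDR windows. The G and C content of the windows was 40.3% at thoc-5, 49.3% at hel-1 and 33.3% at nxf-1. All 3 fell inside the 5th to 95th percentile range of IDR windows, 31.3% to 53.7%. Of the 5 windows at regions below the threshold, those of thoc-3 (29.9%) and thoc-7 (27.4%) were under this range, and the other 3 lay between 33.3% and 45.8%.

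The protein-coding genes whose peaks most resembled that of thoc-5 in strength were W04C9.4, hcp-6 and let-630. Likeness was the Euclidean distance between log10 scores over the pooled, replicate 1 and replicate 2 lists, among the 1216 genes with an IDR summit. W04C9.4 scored 1344.5, 750.4 and 602 in these lists (distance 0.0102). The genes hcp-6, which encodes a condensin subunit, and let-630 share a summit that scored 1330.2, 702 and 641 (distance 0.0381).

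Beyond the 9 genes, 4 lists of genes that act on mRNA before or during export were described in the same way. Of 45 genes found by name, 12 had an IDR summit within 500 bp (26.7%, against the 6.09% above). These lists too were drawn up with earlier results known, and no test was made. Of 8 other export genes, 1 had an IDR summit, pabp-2, which encodes the nuclear poly(A)-binding protein (pooled score 314, 378 bp upstream). That summit is nearer to the 5' end of C17E4.6, at 186 bp. The receptor paralog gene nxf-2, the cofactor gene nxt-1, the third adaptor gene aly-3 and the cap-binding genes ncbp-1 and ncbp-2 had none. Among 11 exon junction and SR protein genes there were 3, rsp-6 (pooled score 169.6) and rsp-1 with rsp-2, whose single common summit (229) was 131 bp and 276 bp upstream of their 5' ends.

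Genes of RNA decay and 3' end formation were also represented. In the nuclear exosome list, whose products degrade and trim nuclear RNA, 4 of 12 genes had an IDR summit, namely exos-8 (pooled score 267, 57 bp upstream), exos-3 (167), exos-4.1 (148) and exos-2 (99.6). The exos-4.1 summit, 177 bp upstream, is nearer to dli-1, at 30 bp, and to tin-9.2, at 173 bp. It lay in no region of replicate 2's list. The exos-3 summit is nearer to nlp-4, at 110 bp. Cleavage and polyadenylation genes had one in 4 of 14 cases, cfim-1 (572, 157 bp upstream), cpf-2 (247), symk-1 (152) and pcf-11 (141). Of these, cfim-1 and symk-1 share their summits with slc-25A42 and F25G6.9, whose 5' ends are nearer, at 38 bp and 69 bp. The pcf-11 summit, 335 bp upstream, is also within the window of the noncoding RNA gene linc-2, whose 5' end is nearer at 302 bp. None of the 12 genes reached the score of thoc-5. When each summit was given only to the nearest gene, 5 of the 45 genes had one, against 4.22% of protein-coding genes. Of the 14 cleavage and polyadenylation genes, 1 then had one. Without replicate 1 the exosome count was 2 of 12, against 6.03% of protein-coding genes. Without replicate 2 the export count was 2 of 8, against 6.33%.

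**Figure D5:**
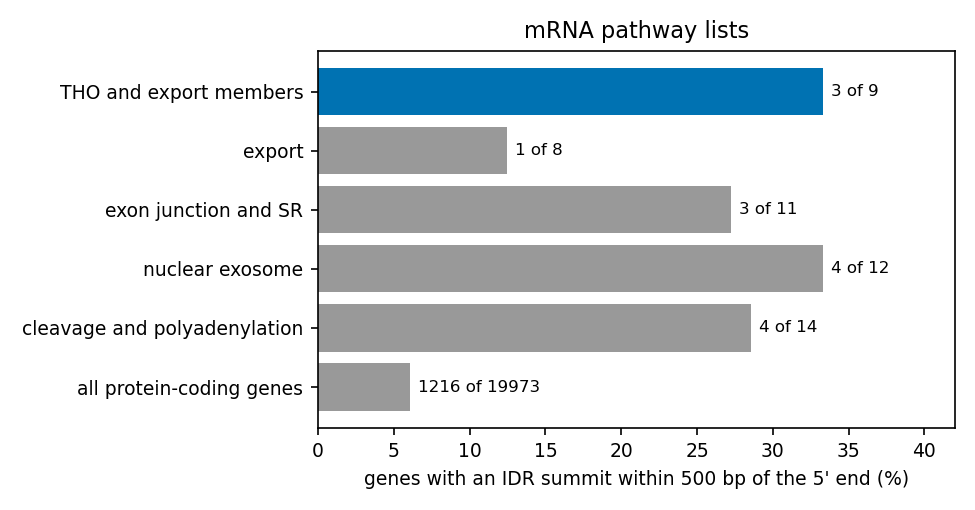
Share of genes (%) with an IDR summit within 500 bp of the 5' end, for the 9 members (blue) and for 4 mRNA pathway lists and all protein-coding genes (grey), with the counts beside the bars. Members stand at 3 of 9 and the lists between 1 of 8 and 4 of 12, against 1216 of 19973 protein-coding genes; neighbouring genes can share a summit and no test was made.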

How the data were processed

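Peak lists of 2 biological replicates were used. Per the labels of the deposited files, the authors listed peaks together with background regions for each replicate and for the pooled replicates from alignments and another file not used here, and an optimal IDR set was built from those lists. The score is the authors' signal value, deposited without a unit. The −log10 q-value of each peak is also the authors', as deposited. For the peak caller, the aligner and the IDR cutoff the sources used here give no name or value. Read depth is unknown. The lists on ce11 were used with Ensembl release 115 (WBcel235, the same build) and the RefSeq sequence of that assembly, and those on ce10 were not used here. Mitochondrial peaks were left out.

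A gene's 5' end is the outermost annotated one on its strand. Members and lists were chosen with earlier results of these data known. Named genes were the members, list genes with an IDR summit, genes sharing a summit with either, and the 3 genes most like the strongest member. Some neighbours on each side and some list genes without an IDR summit were also named. The genes spd-2 and B0513.4 were named because a summit lay in them. The rpl-29 region was singled out after its values were seen. List symbols without a gene of that name (4) were left out. The code for gene assignment was run on summits planted at known distances from genes. That check shows only that the code applies the 500 bp rule, not that a peak acts on the gene it is counted for. Python 3.11.15, numpy 2.4.6 and pandas 2.3.3 were used.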

Additional observations from a re-analysis of the deposited data

How the results depend on the processing

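Of the results, the counts of members, of protein-coding genes and of pathway genes with an IDR summit were recomputed under 8 alternatives each. Where a replicate was left out, the 1894 strongest nuclear peaks of the other replicate stood in for the IDR set. With a window of 250 bp the counts were 1 of 9 members and 776 protein-coding genes, and with the strongest 947 IDR peaks 1 and 741. With each summit given only to the nearest gene, the pathway lists had 5 genes in place of 12. Protein-coding genes then numbered 842 in place of 1216. The exosome list had 2 in place of 4 genes without replicate 1, with the nearest gene only and with the strongest 947 peaks. The export list had 2 in place of 1 without replicate 2, and 0 with a window of 250 bp or the nearest gene only. The cleavage and polyadenylation list had 1 in place of 4 with the nearest gene only and 2 with the strongest 947 peaks. The member count was 3 with a window of 1000 bp, against 7.87% of protein-coding genes. It was also 3 with the whole peak counted in place of its summit (6.72%) and with the 5' end of any transcript (6.41%). With the nearest gene only it was 2, against 4.22%. Leaving out a replicate gave 2 to 3 members, 1204 to 1264 protein-coding genes and 11 to 14 pathway genes. The IDR peaks of all 3 members lay in regions of both replicates, also with a reciprocal overlap of 50%. With only the 1894 strongest nuclear peaks of each replicate, 2 of them did. The IDR set was itself built from the replicate lists, so this agreement was largely fixed in advance. Read depth is unknown, so what it limits could not be given.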
